A study of Homo sapiens with 6 samples.

Results

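The 43 genes described here encode the core machinery of macroautophagy together with DRAM1, DRAM2 and the TP53INP genes, and they were taken by gene symbol from the 40205 genes of a gene-level read count table. The table covers 6 RNA samples of cells labelled HepG2, an established human liver cancer line: 3 are labelled controls, numbered Control-1 up to Control-3, for which no exposure is stated, while the other 3, CLs-1 up to CLs-3, were exposed to cationic liposomes. Cationic liposomes (CLs) are positively charged lipid vesicles, made here from the cationic lipid DOTAP, cholesterol and a lipid carrying polyethylene glycol, and used as carriers for drugs and nucleic acids. All cells were grown for 24 h before the exposure, which then lasted 24 h at a dose that the labels give as 120 μM, though the unit differs between the labels and the study's text and the dose is therefore uncertain, and no drug or nucleic acid cargo is named in the labels. The comparison asks whether transcripts of the autophagy pathway were at other levels in cells exposed to CLs than in control cells. The labels do not say whether the 3 samples of a group came from separate cultures, so the p-values measure the spread between these samples, which may be technical.

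Libraries held between 11418527 and 13998946 counts, and CLs-1 was the largest. The marker genes of hepatocytes that define the labelled line were at or near 0: the 8 markers summed to 4 to 16 counts in the control libraries and 0 to 72 in the CLs libraries, TTR was at 0 in all 6 libraries, and ALB, the albumin gene, was at 0 in 5 libraries with 8 counts in CLs-1. Of 8 fibroblast markers, 3 (COL3A1, COL1A1 and PDGFRB) exceeded 3 counts in every library. The list summed to 8406 to 12800 counts in controls and 9219 to 13578 in CLs libraries. Most of each sum came from the single gene COL3A1, at 7456 to 11358 counts in controls and 8168 to 9697 in CLs libraries. Leaving CLs-1 aside, LUM and PDGFRA were at 0, THY1 ranged from 0 to 1 and DCN from 2 to 5. CLs-1 stood apart by 477 counts from 5 erythroid markers, against 0 to 4 in the other libraries, and by 1044 counts of COL1A2, against at most 2 elsewhere. Of 6 leukocyte markers, CD68, which encodes a lysosomal membrane protein, supplied nearly all of the 154 to 203 control and 201 to 302 CLs counts, while PTPRC had at most 1 count and CD3E and MS4A1 were at 0. The 4 endothelial markers summed to 3 to 43 counts in controls and 1 to 5 in CLs libraries. The part of these markers in the values below was not tested, and the counts of members without CLs-1 are given with those of the other libraries.

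Macroautophagy encloses cytoplasm, organelles or protein aggregates in a double membrane, the autophagosome, which then fuses with lysosomes for degradation of its contents. A kinase complex around ULK1 starts the process, a lipid kinase complex around BECN1 marks the membrane, lipid carriers enlarge it, and a pair of ubiquitin-like conjugation systems attaches proteins of the ATG8 family (LC3 and GABARAP) to it, where cargo receptors such as p62, the product of SQSTM1, dock. DRAM1 is a lysosomal membrane protein whose gene is a target of p53. Much of this pathway is controlled through protein modification, membrane traffic and protein turnover, which read counts of transcripts do not measure.

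No member passed the criteria for a change, an adjusted p under 0.05 with a fold above 1.5 or below 0.67. Reads were sufficient to test 41 members, and 0 of these 41 were called in the quasi-likelihood test of edgeR, adjusted by Benjamini and Hochberg's method over 15047 genes, where 13 genes (0.0864%) were called in all. DESeq2 also called 0 members. At an unadjusted p under 0.05 there was 1 member on the higher side (SQSTM1), where the background was 2.19% of all genes, and there were 4 on the lower side (DRAM1, GABARAPL1, OPTN and TP53INP2), where the background was 3.62%. DESeq2 gave the same 5 names at its unadjusted p under 0.05. Every CLs sample lay above every control sample for 3 members (SQSTM1, GABARAP and ATG10), against 5.34% of all genes, and below for 3 members (DRAM1, OPTN and ULK2), against 6.18% of all genes.

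Most members had close levels in the 2 groups. The median log2 fold change of CLs-treated against control was 0.0087 over the 41 members and 0.010 over all genes tested, with 25 members above 0 and 16 below. For 28 of 41 members (68.3%) the whole 95% interval of the fold lay between 0.67 and 1.5, compared with 48.7% of all genes tested. These shares also depend on precision, as the median standard error was 0.157 for members and 0.193 for all genes tested. With 3 samples a group, the intervals of the other 13 members reached beyond 1.5 or 0.67. Among these, the estimated folds of DRAM1 (0.659) and SQSTM1 (1.63) themselves lay beyond these limits. The 36 members with an unadjusted p of 0.05 or more had log2 fold changes between -0.39 and 0.28. Because these are bulk samples, fewer cells of a type and less RNA per cell cannot be told apart.

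**Figure D1:**
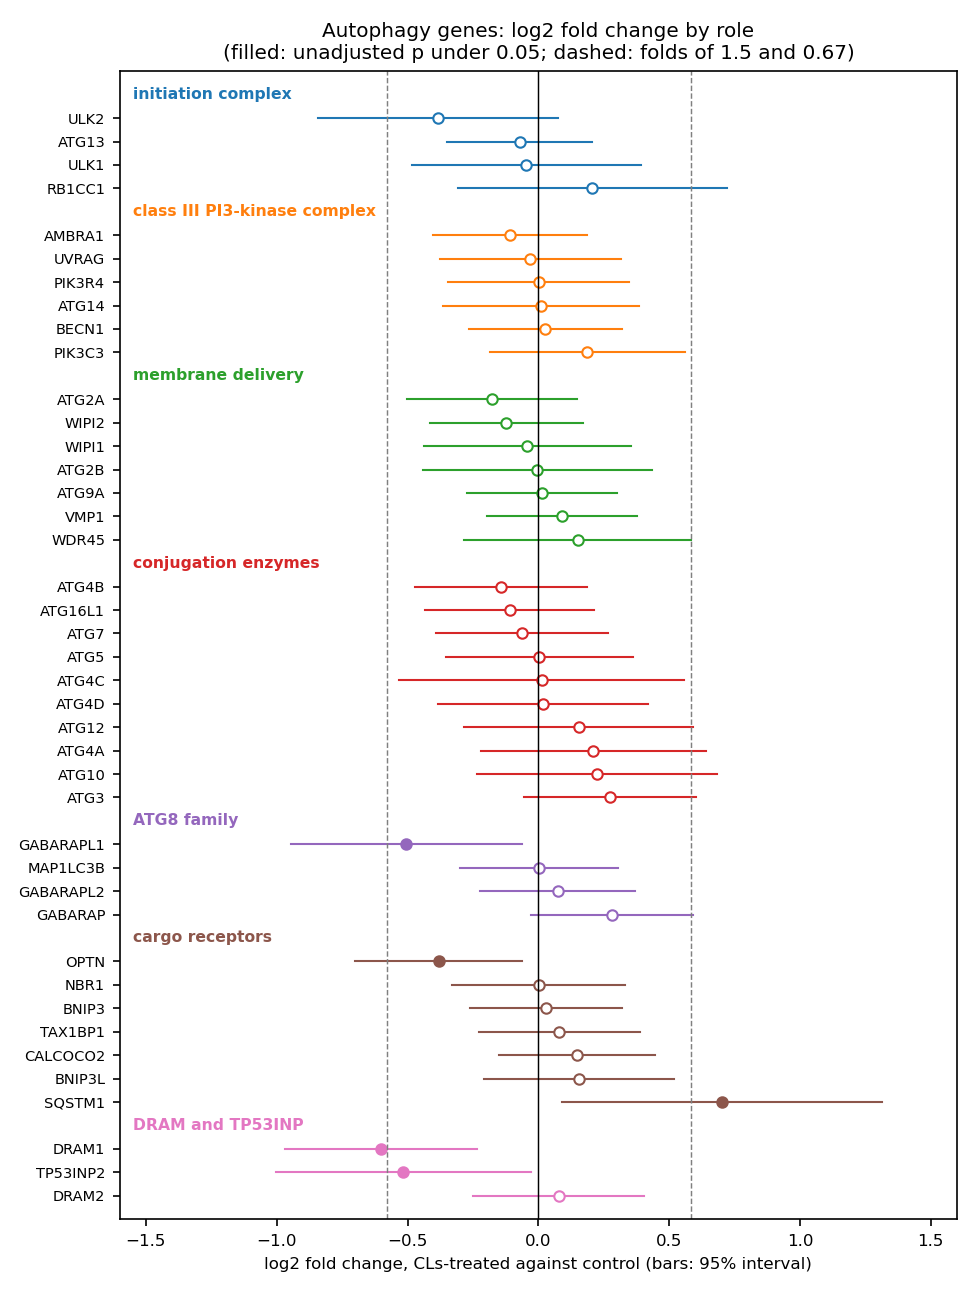
Log2 fold change of CLs-treated against control samples (x axis) for the 41 members tested, grouped by role, with bars for the 95% interval; filled points have an unadjusted p under 0.05, and dashed lines mark folds of 1.5 and 0.67. The 6 genes of the class III PI3-kinase complex lie within the dashed lines with their whole intervals, while DRAM1 (-0.60) and SQSTM1 (0.70) have the most extreme estimates on either side, neither with an adjusted p under 0.05.

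**Figure D2:**
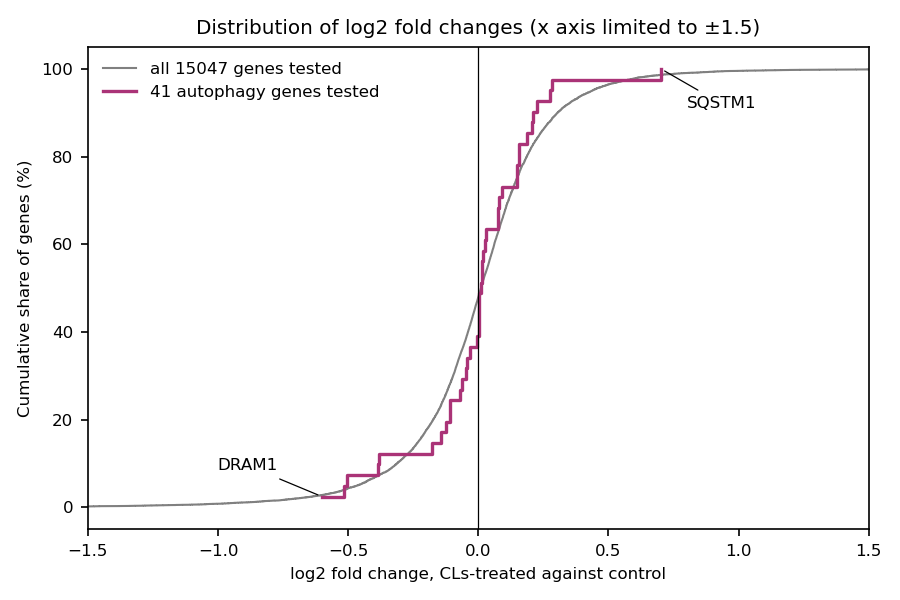
Cumulative share of genes (y axis, percent) by log2 fold change (x axis, CLs-treated against control) for the 41 members and for all 15047 genes tested. The curves cross near 0, where the medians are 0.0087 and 0.010, and the members span -0.60 (DRAM1) to 0.70 (SQSTM1).

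DRAM1 had the lowest unadjusted p of the members. Its level in CPM, counts scaled to a common library size, was 73.6, 68.7 and 93.8 in Control-1 to Control-3 and 61.1, 44.7 and 49.8 in CLs-1 to CLs-3, from 517 to 1094 counts a library. All 3 CLs samples lay below all 3 control samples, and CLs-1 lay nearest to the controls. The means were 78.7 ± 13.3 CPM in control and 51.8 ± 8.38 in CLs samples (SD, n = 3 each). The log2 fold change was -0.60 with a standard error of 0.17, which is a fold of 0.659 (95% interval 0.511 to 0.849), and the adjusted p was 0.328 in edgeR's quasi-likelihood test, so the difference did not pass over all genes. The study used another test (EBSeq) with these fold and adjusted p criteria and listed DRAM1 as down-regulated. It also measured DRAM1 by qRT-PCR, and it describes the qRT-PCR levels of its selected genes, taken as a set, as close to its RNA-seq results. Without CLs-1 the log2 fold change was -0.74 (adjusted p = 0.234) and without Control-3 it was -0.46 (adjusted p = 0.650).

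Of the other genes grouped with DRAM1, DRAM2 had nearly equal levels in the 2 groups and TP53INP2 was on the lower side. DRAM2, which encodes a second lysosomal member of the DRAM family, was at 20.7, 19.9 and 20.0 CPM in controls and 19.9, 22.0 and 22.0 in CLs samples, a log2 fold change of 0.08 with an interval of the fold from 0.841 to 1.32. The difference between the log2 fold changes of DRAM1 and DRAM2 was not tested. TP53INP2, whose protein moves from the nucleus to autophagosomes and binds ATG8 proteins there, was at 10.5, 15.1 and 18.6 CPM in controls and 10.8, 10.1 and 10.0 in CLs samples. The groups overlapped at Control-1, and the 3 CLs samples were closer to each other than the 3 controls were. Its log2 fold change was -0.52 with a standard error of 0.22 (adjusted p = 0.818), and it was -0.31 without Control-3. TP53INP1, a p53 target that also binds ATG8 proteins, had 0 counts in the controls and 1, 0 and 1 in the CLs libraries, at or under 3 counts in every library, and was not tested.

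**Figure D3:**
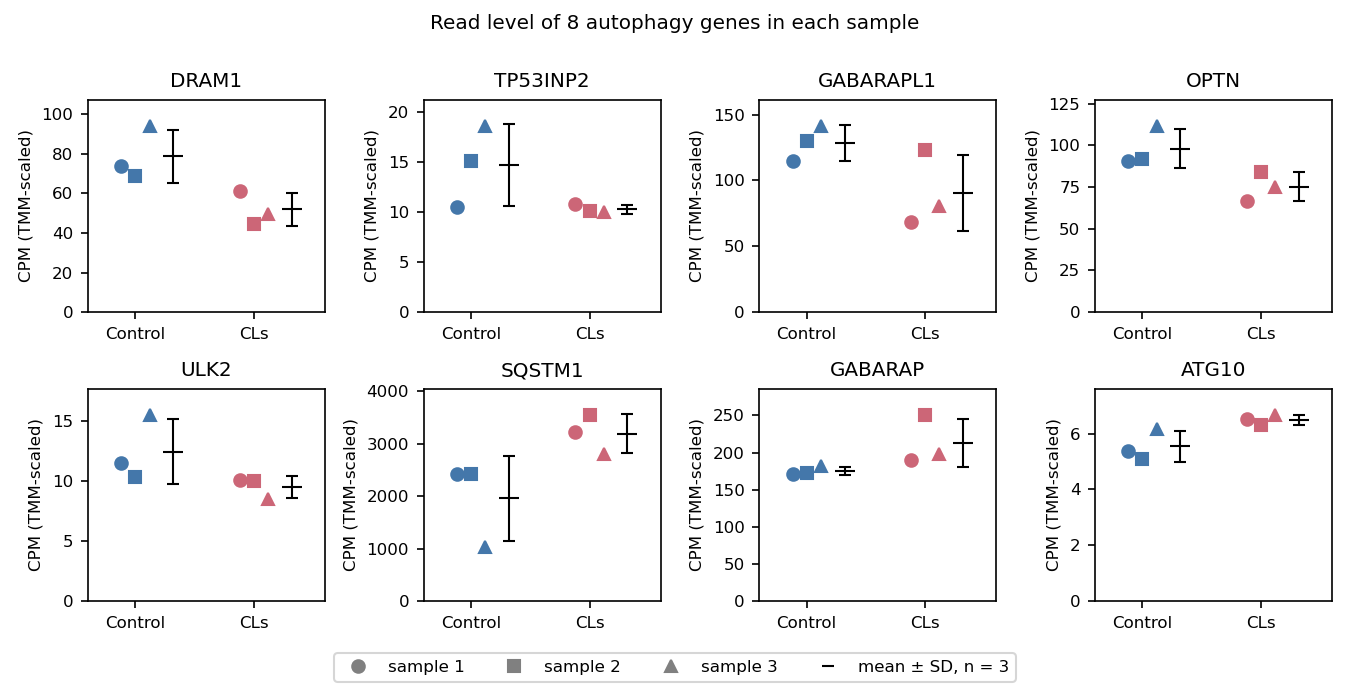
CPM (y axis, from 0) of 8 members in each of the 3 control (blue) and 3 CLs (red) samples, with the mean and SD beside them; the marker shape gives the sample number. DRAM1, OPTN and ULK2 have every CLs sample below every control, SQSTM1, GABARAP and ATG10 have every CLs sample above, TP53INP2 and GABARAPL1 overlap, and Control-3 is the lowest SQSTM1 sample at 1026 CPM.

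The promoters of DRAM1 and TP53INP2 are shown because these were the genes with an unadjusted p under 0.05 in the group of the DRAM and TP53INP genes. Each is the stretch of 250 bases before a RefSeq transcript start in GRCh38.p14, on the + strand, which is the coding strand of both genes. DRAM1 is at chr12:101877330-101877579 and TP53INP2 at chr20:34704094-34704343, and each gene has coding transcripts that start elsewhere. Capitals mark TGACGTCA, the full cyclic AMP response element (CRE), which reads the same on both strands.
DRAM1: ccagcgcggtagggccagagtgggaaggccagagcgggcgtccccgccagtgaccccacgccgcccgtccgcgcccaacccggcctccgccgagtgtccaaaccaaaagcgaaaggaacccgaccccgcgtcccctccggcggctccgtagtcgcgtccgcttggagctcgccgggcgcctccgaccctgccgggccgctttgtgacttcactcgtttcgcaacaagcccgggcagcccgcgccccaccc
TP53INP2: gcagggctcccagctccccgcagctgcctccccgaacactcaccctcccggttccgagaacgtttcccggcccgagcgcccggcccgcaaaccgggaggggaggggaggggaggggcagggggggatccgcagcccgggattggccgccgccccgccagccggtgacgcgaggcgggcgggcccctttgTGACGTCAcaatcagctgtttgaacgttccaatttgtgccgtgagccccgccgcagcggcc
The TP53INP2 window held the element with its first base 61 bases before the transcript start, and the DRAM1 window held none of the 3 motifs searched. The 3 motifs were TGACGTCA, the E-box CACGTG that TFEB and related factors bind, and TGACNNNGC, the antioxidant response element core, each on both strands.

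The initiation complex of 4 genes (ULK1 and ULK2, kinases, and ATG13 and RB1CC1, their scaffold partners) had a median log2 fold change of -0.06. ATG13, the member of this complex with the highest count, was at 93.1, 99.0 and 100.0 CPM in controls and 87.6, 101.0 and 89.6 in CLs samples. The groups overlapped, and the log2 fold change was -0.07 with an interval of the fold from 0.785 to 1.15. ULK2 was at 11.6, 10.4 and 15.5 CPM in controls and 10.1, 10.0 and 8.5 in CLs samples, so the groups lay apart by a narrow margin between Control-2 and CLs-1. Its log2 fold change was -0.39 with a standard error of 0.21 (adjusted p = 0.912), and it was -0.20 without Control-3. RB1CC1 was at 86.3 CPM in CLs-1 and at 45.4 and 45.6 in CLs-2 and CLs-3, with controls from 44.5 to 55.2. ULK1 ranged from 44.8 to 80.7 CPM over the controls and from 55.2 to 70.1 over the CLs samples.

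The 6 genes of the class III PI3-kinase complex (the lipid kinase PIK3C3, its adaptor PIK3R4, BECN1, and the regulators ATG14, UVRAG and AMBRA1) were the most tightly bounded role. All 6 intervals of the fold lay within 0.67 to 1.5, and log2 fold changes ran from -0.11 (AMBRA1) to 0.19 (PIK3C3). BECN1, the gene of this complex with the highest count, was at 65.6, 60.0 and 53.5 CPM in controls and 57.3, 61.8 and 63.4 in CLs samples. The groups overlapped fully, with means of 59.7 ± 6.03 and 60.8 ± 3.20 CPM (SD, n = 3 each) and an interval of the fold from 0.831 to 1.25. The sign of its log2 fold change of 0.03 turned when Control-3 or CLs-3 was left out.

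The 7 genes of membrane delivery were close to the centre as well, with log2 fold changes between -0.18 (ATG2A) and 0.15 (WDR45). They comprise the phosphoinositide-binding WIPI1, WIPI2 and WDR45, the lipid transfer proteins ATG2A and ATG2B, and the lipid scramblases ATG9A and VMP1. VMP1 had the highest count, at 252.3, 247 and 272.8 CPM in controls and 289.5, 286.5 and 245.8 in CLs samples. The groups overlapped at CLs-3, and the interval of the fold was 0.874 to 1.30. ATG9A, at 141 to 166 CPM over all 6 samples, had an interval of the fold from 0.827 to 1.23. WDR45 had the widest CLs spread of the role, from 63.3 CPM in CLs-1 to 109.2 in CLs-2, and was the 1 gene of the 7 whose interval was not within 0.67 to 1.5.

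Among the 10 genes of the conjugation systems, 7 had log2 fold changes above 0 and 3 below, from -0.14 (ATG4B) to 0.27 (ATG3). ATG7 is the activating enzyme, ATG3 and ATG10 are the conjugating enzymes for ATG8 proteins and for ATG12, ATG5 and ATG16L1 form the complex that directs the conjugation with ATG12, and ATG4A to ATG4D are the proteases that process ATG8 proteins. ATG3 was at 64.2, 57.5 and 52.0 CPM in controls and 77.8, 73.5 and 58.7 in CLs samples. CLs-1 and CLs-2 were above every control and CLs-3 was among them, and the log2 fold change was 0.27 with a standard error of 0.15 (adjusted p = 0.916). ATG10, the lowest of the 10 per length, was at 5.38, 5.09 and 6.17 CPM in controls and 6.51, 6.31 and 6.66 in CLs samples. The groups did not overlap, yet the gap between Control-3 and CLs-2 was small beside the spread of the controls, and the log2 fold change was 0.23 with a standard error of 0.21 (adjusted p = 0.998). ATG5 and ATG7, at 35.8 ± 4.44 and 24.6 ± 2.02 CPM in controls and 35.8 ± 5.50 and 23.5 ± 1.48 in CLs samples (SD, n = 3 each), had intervals of the fold from 0.783 to 1.28 and from 0.762 to 1.20.

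The ATG8 family, the proteins that are attached to the autophagosome membrane, held its most divergent values in the pair GABARAPL1 and GABARAP. GABARAPL1 was at 114.5, 129.7 and 141.1 CPM in controls and 68.4, 122.9 and 80.3 in CLs samples. CLs-1 and CLs-3 were below all controls, and CLs-2 lay between Control-1 and Control-2. The log2 fold change was -0.50 with a standard error of 0.20 (fold 0.705, interval 0.519 to 0.958, adjusted p = 0.752), and it was -0.34 without CLs-1 and -0.79 without CLs-2. GABARAP was at 171.7, 172.1 and 181.2 CPM in controls and 190.4, 250.2 and 197.9 in CLs samples. All CLs samples were above all controls, with CLs-2 well above the other two, and the log2 fold change was 0.28 with a standard error of 0.14 (adjusted p = 0.888), or 0.15 without CLs-2.

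Since CLs-2 was the highest CLs sample for both genes, their ratio within each library was taken, which no scaling of the libraries can alter; it was chosen after these values were seen. GABARAPL1 counts over GABARAP counts were 0.667, 0.754 and 0.779 in controls and 0.359, 0.491 and 0.406 in CLs samples, with no overlap. An exact two-sided permutation test gave p = 0.10, the smallest that 3 against 3 samples allow. As a share of the reads per exonic kilobase of the 4 measured ATG8 genes, GABARAP was 42.0% ± 1.53 in controls and 49.4% ± 0.768 in CLs samples, and GABARAPL1 was 23.4% ± 2.30 and 15.7% ± 2.69 (SD, n = 3 each; exact permutation p = 0.10 for each). The shares of GABARAPL2 (21.7% and 22.3%, exact permutation p = 0.60) and of MAP1LC3B (12.9% and 12.6%, exact permutation p = 1) overlapped between groups. The 4 shares sum to the whole, so they are not independent of each other. They rest on the same counts as the ratio, of a pair already seen to diverge, so their p-values are not separate tests. In the annotation used here, 30.5% of GABARAP exon bases overlap a gene on the same strand.

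**Figure D4:**
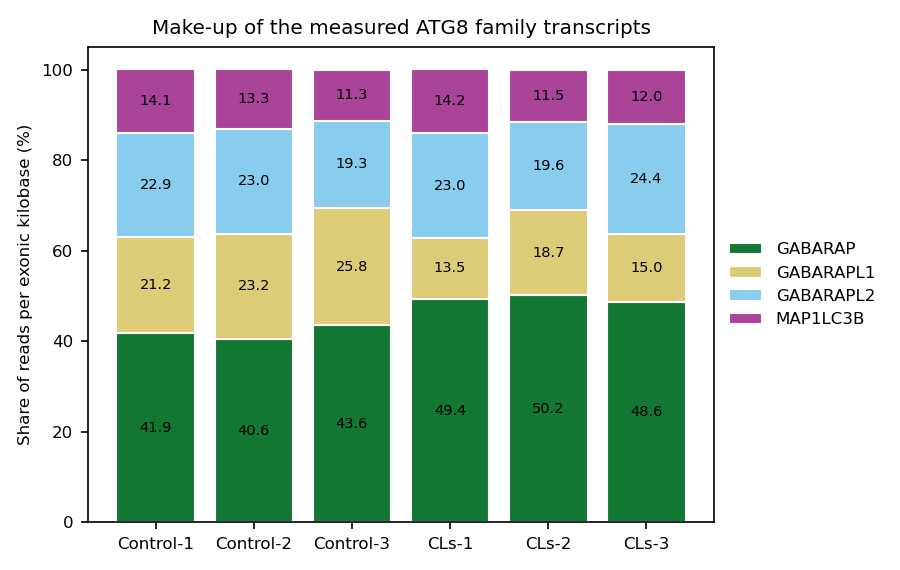
Share (y axis, percent) of each of 4 ATG8 family genes in their summed reads per exonic kilobase, for each control and CLs sample (x axis). GABARAP takes 40.6% to 43.6% in the controls and 48.6% to 50.2% in the CLs samples, GABARAPL1 takes 21.2% to 25.8% and 13.5% to 18.7%, and the other two overlap between groups.

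MAP1LC3B, the LC3 gene whose protein is the usual marker of autophagosomes, had almost equal levels in the 2 groups. It was at 76.7, 74.9 and 62.4 CPM in controls and 72.6, 76.6 and 65.2 in CLs samples, with an interval of the fold from 0.812 to 1.24. GABARAPL2 had an interval of the fold from 0.856 to 1.29. MAP1LC3A had 1 count in each control and 6, 0 and 0 in the CLs libraries, too few to test. Reads of near-identical copies are a limit for this family: MAP1LC3B2 held 30.8% to 41.1% as many counts as MAP1LC3B, while GABARAPL3 held 0.709% to 1.86% as many as GABARAPL1.

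The GABARAPL1 promoter is shown because it shares with TP53INP2 the element in capitals (TGACGTCA), the 2 genes being on the lower side at an unadjusted p under 0.05. The windows of DRAM1 and OPTN, the other members on the lower side at that p, held none of the 3 motifs. It lies at chr12:10212627-10212876 of GRCh38.p14 on the + strand, and other coding transcripts of the gene start elsewhere.
GABARAPL1: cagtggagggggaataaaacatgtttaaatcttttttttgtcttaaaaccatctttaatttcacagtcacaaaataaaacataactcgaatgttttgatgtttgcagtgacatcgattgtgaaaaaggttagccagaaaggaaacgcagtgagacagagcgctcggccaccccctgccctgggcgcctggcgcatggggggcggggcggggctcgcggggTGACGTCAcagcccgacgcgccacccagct
The element began 30 bases before the transcript start. It was in 2 of 47 promoters of the 37 members that were matched in the RefSeq table (4.26%) and in 1.65% of all 35116 promoters. Those 2 are the promoters of GABARAPL1 and TP53INP2, and the motifs were chosen after the sequences were seen. The shares therefore cannot test whether members carry the element more often. The E-box was in 3 of 47 (6.38%; ATG14, ATG3 and BNIP3) and in 6.34% of all promoters, and TGACNNNGC was in 3 of 47 (6.38%; CALCOCO2, DRAM2 and MAP1LC3B) and in 10.9% of all. ATG4D, BNIP3L, MAP1LC3A, RB1CC1, TP53INP1 and UVRAG had no entry. A match describes the letters of the window and no binding was measured.

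SQSTM1 encodes p62, the receptor that links ubiquitinated cargo to ATG8 proteins and that is itself degraded by autophagy, and it had the highest level of all members. It was at 2431, 2428 and 1026 CPM in Control-1 to Control-3 and at 3221, 3544 and 2807 in CLs-1 to CLs-3. Every CLs sample was above every control, and Control-3 was far below the other controls. The means were 1962 ± 811 CPM in control and 3191 ± 369 in CLs samples (SD, n = 3 each), a fold of 1.63 (95% interval 1.06 to 2.49). The log2 fold change was 0.70, its standard error 0.28 and its adjusted p 0.747 in edgeR's quasi-likelihood test. Without Control-3 the log2 fold change was 0.39. SQSTM1 took 0.238%, 0.240% and 0.103% of all counts in the controls and 0.332%, 0.351% and 0.281% in the CLs samples, and by count it ranked 23, 24 and 72 among the genes of the control libraries and 11, 12 and 21 among those of the CLs libraries. In the annotation used here, 39.8% of its exon bases overlap MRNIP (C5orf45 in the count table) on the other strand, and that gene held at most 2.78% as many counts as SQSTM1.

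The window before an SQSTM1 start, shown because this was the member with the highest fold, lies at chr5:179820655-179820904 of GRCh38.p14 on the + strand, 1 of 3 starts listed, and held none of the 3 motifs.
SQSTM1: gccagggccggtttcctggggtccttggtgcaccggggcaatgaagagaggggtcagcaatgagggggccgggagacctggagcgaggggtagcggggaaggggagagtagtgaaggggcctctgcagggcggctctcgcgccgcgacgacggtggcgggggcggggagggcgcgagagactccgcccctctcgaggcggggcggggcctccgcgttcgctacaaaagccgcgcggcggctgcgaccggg

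Of the other receptors, OPTN was on the lower side and 5 had log2 fold changes from 0.0016 (NBR1) to 0.16 (BNIP3L). OPTN, which encodes the receptor optineurin for mitochondria and bacteria, was at 90.5, 91.7 and 111.4 CPM in controls and 66.5, 83.8 and 75.3 in CLs samples. The groups did not overlap, CLs-2 being nearest to the controls. The means were 97.9 ± 11.7 and 75.2 ± 8.64 CPM (SD, n = 3 each), and the log2 fold change was -0.38 with a standard error of 0.15 (fold 0.768, interval 0.616 to 0.958, adjusted p = 0.701). NBR1, a receptor related to p62, ranged from 107.1 to 155.5 CPM in controls and from 129.9 to 132 in CLs samples, with means of 131 and 131 CPM. CALCOCO2 and TAX1BP1, receptors for bacteria and protein aggregates, and BNIP3 and BNIP3L, receptors for mitochondria, had log2 fold changes of 0.15, 0.08, 0.03 and 0.16, and all of these intervals of the fold lay within 0.67 to 1.5. BNIP3P1 held 22.6% to 35.0% as many counts as BNIP3.

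Levels between genes were compared per length, as CPM per exonic kilobase, where the length joins all exons of a gene in the annotation. The order depends on this length. PIK3C3, with 12154 such bases, was at 15.8 CPM in controls, above ULK2 at 12.5 CPM with 6267. In controls SQSTM1 was at 564, followed by VMP1 at 94.9, GABARAP at 77.2, GABARAPL1 at 43.0, GABARAPL2 at 39.9 and ATG9A at 36.2, and the lowest tested members were ULK2 at 1.99, PIK3C3 at 1.30 and ATG10 at 1.25. The median of the members was 12.2 in controls and 13.5 in CLs samples. Exons of 19 members overlap another gene in the annotation, by 20% or more of the exon bases in 7 of them, and strand use in the counting is not given in the sources used here, so levels of those genes are uncertain.

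Single libraries moved several of these values. The ratio of the highest to the lowest sample of a group had a median of 1.23 over members in controls and 1.24 in CLs samples. It exceeded 1.5 in 3 members in controls (SQSTM1, ULK1 and TP53INP2) and in 7 members in CLs samples. Control-3 was the highest control for 20 of 41 members. Control-3 and CLs-1 were each the highest of all 6 samples for 12 members, and CLs-1 and CLs-3 were each the lowest for 11. With 1 library left out, the number of members at an unadjusted p under 0.05 was 5 without Control-1, 3 without Control-2 (DRAM1, OPTN and SQSTM1), 2 without Control-3 (DRAM1 and SQSTM1), 3 without CLs-1 (DRAM1, GABARAP and WDR45), 3 without CLs-2 (DRAM1, GABARAPL1 and OPTN) and 3 without CLs-3 (ATG3, DRAM1 and SQSTM1). DRAM1 was in each of these sets. Over all genes tested, that p was reached by 929 of 15367 without Control-1, 646 of 15391 without Control-2 and 921 of 15353 without Control-3. It was reached by 1381 of 15315 without CLs-1, 721 of 15359 without CLs-2 and 856 of 15374 without CLs-3.

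Genes around the core pathway were described through 5 further lists, and 0 of their tested members were called by edgeR. Of 21 tested genes of upstream control (the TFEB family, FOXO factors, mTORC1 and AMPK, with 22 in the list), the median log2 fold change was -0.0039, and 1 was at an unadjusted p under 0.05. This was MITF, a transcription factor of the TFEB family that drives lysosomal genes, at 84.7, 67.5 and 60.7 CPM in controls and 56.5, 42.1 and 40.6 in CLs samples. All CLs samples were below all controls, and the log2 fold change was -0.61, its standard error 0.17 and its adjusted p 0.351. TFEB itself was at 8.82 ± 1.94 CPM in control and 8.03 ± 1.16 in CLs samples (SD, n = 3 each), with an interval of the fold from 0.642 to 1.28. In this list SESN2 was also non-overlapping on the higher side, and TFE3 and MTOR on the lower. With MITF these were 4 of 21 genes (19%), against 11.5% of all genes tested. The share at an unadjusted p under 0.05 was 4.76% in this list and 5.81% over all genes tested.

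All 13 genes of fusion with lysosomes, among them the SNARE proteins STX17, SNAP29, VAMP8 and YKT6, had intervals of the fold within 0.67 to 1.5, and 0 were at an unadjusted p under 0.05. The same count was 0 of 17 tested among other factors linked to ATG proteins, where KIAA0226, the gene of the inhibitor Rubicon, was non-overlapping on the lower side (log2 fold change -0.29, adjusted p = 0.920). It was the 1 such gene of the 17 (5.88%), against 11.5% of all genes tested. Of 20 p53 targets, the list to which DRAM1 belongs by its regulation, 14 had log2 fold changes above 0 and 6 below, and 1 was at an unadjusted p under 0.05. That gene was GDF15, which encodes a secreted stress cytokine, at 35.3, 55.9 and 56.6 CPM in controls and 58.4, 108.5 and 105.9 in CLs samples. Every CLs sample was above every control, CLs-1 only just, and the log2 fold change was 0.88 with a standard error of 0.25 (adjusted p = 0.331). CDKN1A, the p21 gene, and MDM2, the p53 ligase gene, had intervals of the fold from 0.789 to 2.08 and from 0.699 to 1.36. The share of p53 targets at an unadjusted p under 0.05 was 5%, against 5.81% of all genes tested. Of all genes tested, 7832 of 15047 had log2 fold changes above 0. Of 12 targets of the hypoxia-inducible factors, which also regulate BNIP3, NDRG1 was on the lower side at an unadjusted p under 0.05 (log2 fold change -0.55, adjusted p = 0.691) and KDM3A, a histone demethylase gene, on the higher side (0.29, adjusted p = 0.851). These were 2 of 12 genes (16.7%), against 5.81% of all genes tested.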

How the data were processed

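RNA of 6 samples, 3 control and 3 CLs-treated, was sequenced by the authors on an Ion Proton instrument from Ion Total RNA-Seq libraries. MapSplice was the authors' aligner, the deposited values are raw read counts per gene, and the submitters' processing notes name HTSeq 0.6.1 and the builds hg19 and GRCh37. The annotation, strand setting and treatment of reads with several matches are not given in the sources used here. Such choices can move reads between overlapping genes and near-identical copies.

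Groups were taken from the sample titles. The counts were tested in R 4.3.3 with edgeR 4.0.16 (limma 3.58.1), using filterByExpr, TMM scaling and the quasi-likelihood F test of condition over all 6 samples, with Benjamini-Hochberg adjustment over 15047 genes. The filter left 41 of 43 members. The fold criteria of 1.5 and 0.67 with an adjusted p under 0.05 follow the study's methods, whose own test (EBSeq) was not used here. The script was tested on simulated data. CPM were taken from the TMM-scaled libraries, and intervals of 95% come from the edgeR fit. A floor of 3 counts corresponds to 0.208 to 0.263 CPM and covers counting error only. Exon lengths and overlaps came from GENCODE on GRCh38, which is not the build of the counts, and promoters from RefSeq on GRCh38.p14, in windows of 250 bases before the start. The motifs were chosen after the sequences were seen. Alternatives were DESeq2 1.42.0, other scalings, other filters, a replicate block, each library left out, and, chosen after seeing the data, reads of near-identical copies added to their member.

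Members and lists were chosen with earlier results of these data known. Values per sample are given for DRAM1, for each member called, at an unadjusted p under 0.05 or with groups that do not overlap, and for the member with the highest count in each role. Genes of the further lists are named when called or at an unadjusted p under 0.05. MAP1LC3B, DRAM2, NBR1, RB1CC1, ULK1, WDR45, ATG5, ATG7, ATG9A, GABARAPL2, TFEB, CDKN1A, MDM2 and other genes beyond this rule were named after their values were seen.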

Additional observations from a re-analysis of the deposited data

How the results depend on the processing

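The number of members called was 0 in all 14 alternatives, while over all genes 13 calls became 107 with DESeq2, 18 with RLE scaling, 15 with upper quartile scaling, 8 with library size only, 171 without a filter on low counts (25432 genes tested), 13 with a CPM above 1 in 3 samples, 68 with the replicate block, and 3 to 7 with a library left out. The number of members at an unadjusted p under 0.05 was 2 to 5 with a library left out and 5 in each other alternative. With library size only GABARAP took the place of TP53INP2. Over all genes, with every library kept, the number at that p ran from 768 (DESeq2) to 1436 (no filter, 25432 genes tested). The number of members with groups that do not overlap was 6 to 12 with a library left out, where fewer samples have to be separated. The same count over all genes was not taken for these alternatives. The median log2 fold change of the members stayed between -0.0092 and 0.043. DRAM1 kept its direction in all 14, with log2 fold changes of -0.74 to -0.46 and adjusted p from 0.0981 (no filter) to 0.841 (without CLs-2). SQSTM1 ran from 0.39 to 0.89 with adjusted p from 0.0632 to 0.999. BECN1 ran from -0.045 (without Control-3) to 0.0997 (without Control-1), and was also below 0 without CLs-3 (-0.0042). The cause was not tested.

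Replicate numbers are shared by the groups, and the same-number correlations of deviations were 0.0998, 0.122 and 0.333. The lowest fell just short of the cut of 0.1, so the numbers were not taken as pairs. With the replicate block the members had 0 calls, 5 at an unadjusted p under 0.05 and a median of 0.0047. Of all 15047 genes tested, 1181 were at that p with the block and 874 without it. The adjusted p of edgeR's quasi-likelihood test was then 0.142 for DRAM1, 0.172 for SQSTM1 and 0.241 for GABARAPL1, lower than without the block. Each sample correlated best with its own number, the highest other correlation being 0.085. With 3 samples a group, standard errors of members were 0.13 to 0.28 on the log2 scale, which limits small differences.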
